A study of Capra hircus with 13 samples.

Results

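The genes described are 10 enzymes of glycolysis and of the lactate step that follows it, *HK1*, *HK2*, *PFKP*, *ALDOA*, *GAPDH*, *PGK1*, *ENO1*, *PKM*, *LDHA* and *LDHB*. They were chosen by function from a list of symbols, and all 10 were found among the 18138 genes listed in all 13 RNA-seq libraries of goat (*Capra hircus*) oocytes and embryos. The question asked of them was which isoforms the egg and the early embryo hold, how their levels differed between stages, and how they differed between control embryos and embryos without most of their *YTHDF2* mRNA. Untreated material gave 3 libraries of MII oocytes (mature oocytes arrested in meiosis), 3 of 4-cell embryos and 3 of 8-cell embryos. Zygotes made by *in vitro* fertilization (IVF) and injected at 8 h after it gave 2 libraries of 8-cell embryos with negative control siRNA (NC) and 2 of 8-cell embryos with a mixture of siRNAs against *YTHDF2* at 20 μM (YTHDF2-KD). The deposited titles of the NC libraries read WT, and their injection with control siRNA is taken from the methods of the study. Should they have been uninjected, injection and knockdown cannot be told apart in that comparison. The strain, sex and age of animals and embryos are not stated in the labels. The injected libraries were made from pools of embryos, the siRNA acts from the zygote on and in every cell, and YTHDF2 protein already laid down in the egg is not removed by an siRNA. Untreated libraries come from earlier studies of the authors and were normalized apart from the injected ones, so no test was made between these experiments. Which earlier study gave which library is not stated in the sources used here, so for MII oocytes against embryos a difference of stage and a difference of study cannot be told apart.

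Glycolysis turns glucose into pyruvate in the cytoplasm. Hexokinases trap glucose as glucose 6-phosphate, phosphofructokinase commits it to the pathway, aldolase splits the sugar, and the enzymes from GAPDH to pyruvate kinase harvest ATP and NADH from the pieces. Lactate dehydrogenase then interconverts pyruvate and lactate, as a tetramer of A subunits, encoded by *LDHA* and favoured in tissues that make lactate, and B subunits, encoded by *LDHB* and favoured in tissues that use it. Mammalian eggs and cleavage embryos are known for living on pyruvate and lactate, with glucose use growing towards the blastocyst. YTHDF2 is a reader of m6A, a methyl mark on mRNA, and directs marked mRNAs to decay.

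All values are FPKM, fragments scaled to gene length and library size, so levels of different genes are compared per length. The untreated libraries held 26853876 to 42495116 fragments, and the depth of the injected libraries is unknown. Fragments on the genes shared by the untreated tables were 64.9 to 66.3% of the total in MII and 94.7 to 97.0% in embryo libraries, and over 9090 genes tested the median log2 difference from MII was 0.29 in 4-cell and 0.37 in 8-cell embryos. The 8-cell replicate 1 stood apart from the other 8-cell libraries, with correlations of 0.854 and 0.898 over genes against 0.966 between those 2, and MII replicate 2 was the highest of its group for 47.5% of genes. Summed oocyte markers (8 listed genes, *BMP15*, *GDF9* and zona pellucida genes among them) ran from 1528 to 2473 FPKM in MII, from 2121 to 3447 in 4-cell and from 2500 to 3045 in 8-cell libraries, and sperm markers summed to at most 1.08 FPKM in any untreated library and to 5.54 to 27.2 FPKM in injected ones, where *TNP2* was the largest part. In the injected embryos the oocyte markers summed to 752 and 479 FPKM in NC and to 972 and 1894 in YTHDF2-KD. *YTHDF2* itself, the target, was at 112 and 159 FPKM in NC and at 8.07 and 4.47 FPKM in YTHDF2-KD (log2 fold change -4.25, SE 0.43, limma adjusted p = 0.000367).

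The sense strands of the siRNAs injected against *YTHDF2* are shown because every knockdown value here rests on them, with the TT overhang in lower case and the targeting bases in capitals. The *GAPDH* primers of the study's qPCR are shown because *GAPDH* is both an enzyme described here and the gene to which that qPCR was normalized. The sequence record listed with these primers appears to be that of another bovid, and they were not matched to goat sequence here.
first siRNA: GGGCUGAUAUUGCUAGCAAtt
second siRNA: GCAUGAAUACUAUAGACCAtt
GAPDH forward primer: cgacttcaacagcgacactcac
GAPDH reverse primer: ccctgttgctgtagcccaattc

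Set out in pathway order, the mRNAs of the steps differed by several orders of magnitude in level. Lactate dehydrogenase was the most abundant step in each of the 13 libraries, with *LDHA* and *LDHB* summed to between 173 and 1372 FPKM. *LDHA* alone ranked 31st to 47th among all genes in the untreated 4- and 8-cell libraries, 73rd to 285th in MII, 648th to 728th in NC and 317th to 639th in YTHDF2-KD. At the other end, *PFKP* and *PFKM* together reached at most 1.31 FPKM, in NC replicate 1. The third subunit gene, *PFKL*, was not analysed in the untreated libraries, so the level of the whole step is not known there. *TPI1* (triosephosphate isomerase), with 0.925 to 7.12 FPKM, and *PGAM1* (phosphoglycerate mutase), with 1.23 to 21.5 FPKM, were the next lowest steps in MII oocytes, and the remaining steps lay between 2.44 FPKM (*ENO1*, 4-cell replicate 1) and 211 FPKM (*GAPDH*, 8-cell replicate 1). Because only uniquely aligned reads were counted, levels of genes with near-identical copies elsewhere in the genome, for which *GAPDH* is known, are uncertain.

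**Figure D1:**
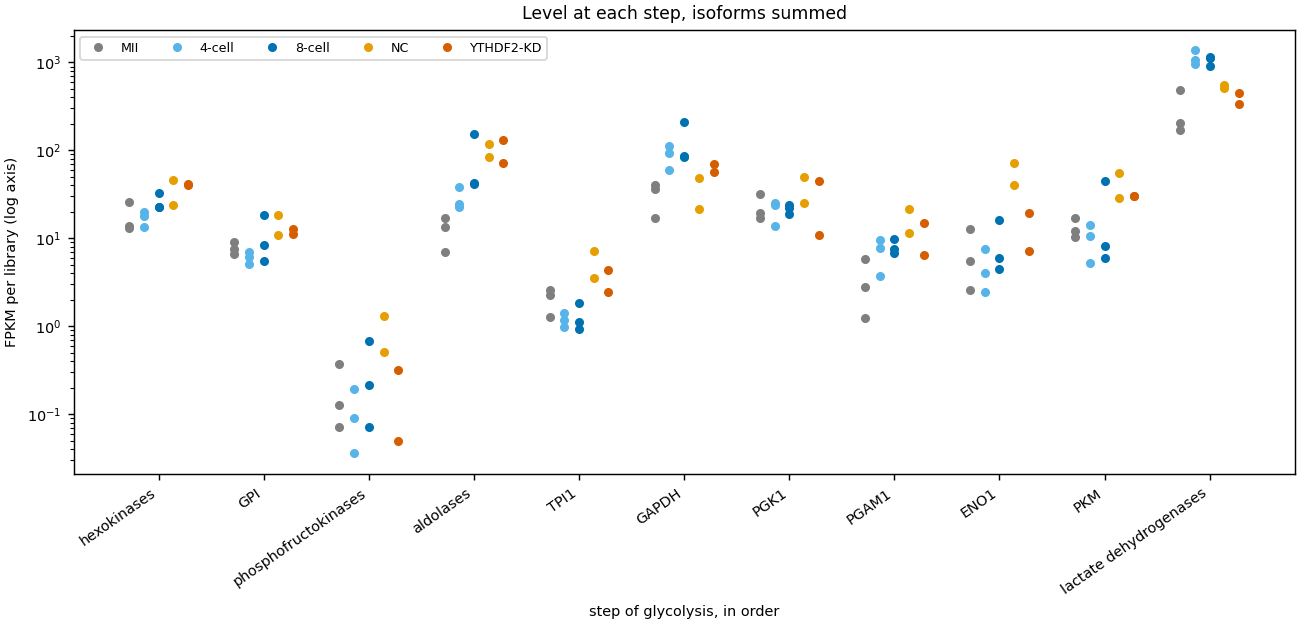
FPKM per library (log axis) at each step of glycolysis in order, with colours for the 5 groups. Summed are *HK1*, *HK2* and *HKDC1*, *PFKP* and *PFKM*, *ALDOA* and *ALDOC*, and *LDHA* and *LDHB*. Every other step is a single gene. The lactate dehydrogenases lie at the top with 173 to 1372 FPKM. The phosphofructokinases, without *PFKL*, lie at the bottom with 0.0358 to 1.31 FPKM.

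By mean level, the order in MII oocytes was *LDHA*, *LDHB*, *GAPDH*, *PGK1*, *PKM*, *ALDOA*, *HK1*, *ENO1*, *HK2* and *PFKP*. *LDHA* did not overlap *LDHB* there, nor *PGK1* *PKM*, nor *HK2* *PFKP*, while all other neighbours in this order overlapped in range. In 8-cell embryos the order was *LDHA*, *LDHB*, *GAPDH*, *ALDOA*, *PGK1*, *HK1*, *PKM*, *ENO1*, *HK2* and *PFKP*, where *ALDOA* had passed *PGK1* with no overlap between them. In the NC embryos *LDHB* led, followed by *LDHA*, *ALDOA*, *ENO1*, *PKM*, *PGK1*, *GAPDH*, *HK2*, *HK1* and *PFKP*. *ENO1*, *PKM*, *PGK1*, *GAPDH* and *HK2* each overlapped the next gene of that order or the one before it.

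**Figure D2:**
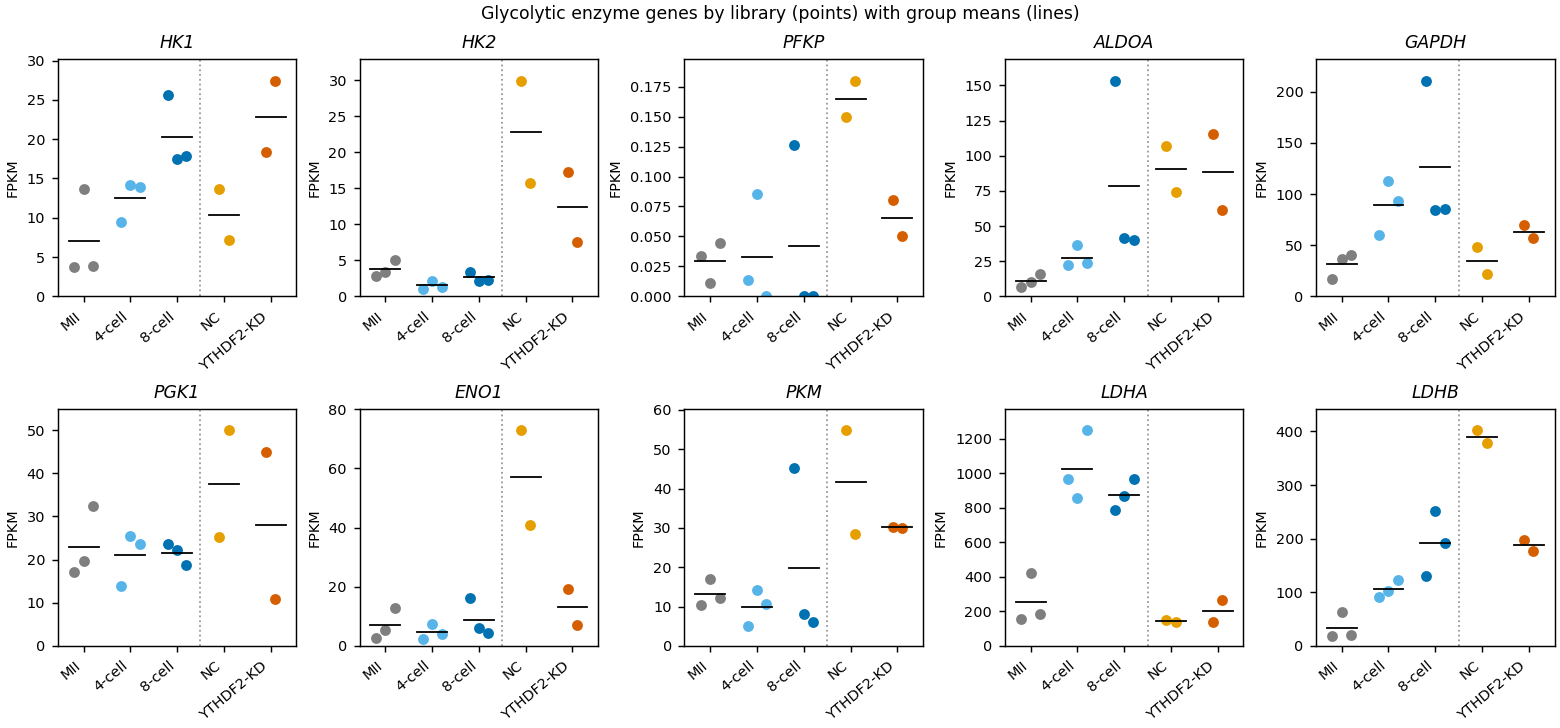
FPKM (linear axes from 0) of each of the 10 genes in each library, points for libraries in replicate order and lines for group means, with a dotted line between untreated and injected libraries. *LDHA* is at 154 to 421 FPKM in MII and at 785 to 1248 FPKM in untreated 4- and 8-cell embryos and 136 to 269 FPKM in injected ones, and 8-cell replicate 1 is far above its group for *ALDOA* and *PKM*.

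Of the hexokinases, *HK1* is the broadly expressed form and *HK2* the inducible form of muscle, fat and tumours. *HK1* was at 3.79, 13.6 and 3.82 FPKM in the MII replicates, at 9.51, 14.2 and 13.9 FPKM in the 4-cell and at 25.6, 17.5 and 17.8 FPKM in the 8-cell replicates. Its 8-cell values lay above all MII values, as did those of 36.4% of all tested genes. MII replicate 2 was far the highest MII library. *HK1* was increased in 8-cell embryos (log2 fold change 1.59, SE 0.41, limma adjusted p = 0.0144). This call was lost with MII replicate 1 or 3 left out (adjusted p of 0.0601 and 0.0562) and, after rescaling every library to the same summed FPKM, at 0.0531. In 4-cell embryos the increase of 0.94 did not pass (adjusted p = 0.116), whereas it was 1.47 without MII replicate 2 (adjusted p = 0.00458).

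*HK2* followed another course. It was at 2.87, 3.41 and 5.01 FPKM in MII, at 1.09, 2.19 and 1.27 FPKM in 4-cell and at 3.37, 2.16 and 2.33 FPKM in 8-cell libraries. The 4-cell values lay below every MII value, as did those of 14.1% of all tested genes. *HK2* was decreased in 4-cell embryos (log2 fold change -0.92, SE 0.28, limma adjusted p = 0.0306). The call was fragile. It was lost without any of MII replicates 1, 2 and 3 or 4-cell replicates 1 and 3, where adjusted p was 0.05002 to 0.116, and with the low genes kept in (0.0731). In 8-cell embryos the difference from MII was -0.39 (95% interval -1.01 to 0.23, adjusted p = 0.299).

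A further hexokinase gene, *HKDC1*, made up a large part of the family in the egg. *HKDC1* was at 7.05, 8.81 and 4.26 FPKM in MII and at 2.77 to 3.55 FPKM in the 6 untreated embryo libraries, a decrease in 4-cell embryos of -0.84 (adjusted p = 0.036) and in 8-cell embryos of -0.85 (adjusted p = 0.0288). In MII oocytes *HK1* held 27.6 to 52.7%, *HK2* 13.2 to 38.3% and *HKDC1* 32.5 to 51.4% of the summed hexokinase FPKM. In 4-cell embryos *HK1* held 69.9 to 76.6% and in 8-cell embryos 76.3 to 79.1%. The share of *HK1* in each untreated embryo library was thus above that in every MII library.

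The log2 ratio of *HK2* to *HK1* was -0.39, -1.97 and 0.38 in MII, -3.02, -2.64 and -3.35 in 4-cell and -2.89, -2.96 and -2.88 in 8-cell libraries. The ratio was lower than MII by 2.35 in 4-cell and by 2.26 in 8-cell embryos, with no overlap between groups in either case. With MII replicate 2 left out the 4-cell difference was -3.004 and the 8-cell one -2.91. With MII replicate 3 left out they were -1.83 and -1.73. An exact two-sided permutation test of 3 against 3 libraries cannot go below p = 0.1, which both reached, and the Benjamini-Hochberg adjusted p over the 8 ratio tests was 0.2. Between the 4-cell and 8-cell stages the ratio differed by 0.09 (exact permutation p = 0.7).

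Of the phosphofructokinase subunits *PFKP* was close to the detection limit. *PFKP*, the platelet-type subunit, had 0 to 9 fragments in an untreated library, with 6 of 9 libraries at or below 3 fragments, which corresponds to 0.027 to 0.0427 FPKM at these depths. It was at 0.15 and 0.18 FPKM in NC and at 0.08 and 0.05 FPKM in YTHDF2-KD, and with a mean under 1 FPKM it entered neither fit. The muscle-type subunit *PFKM* was at 0.0225 to 0.549 FPKM in untreated libraries and at 1.16, 0.33, 0.24 and 0 FPKM in NC and YTHDF2-KD. It had 2 to 46 fragments in an untreated library, the most in 8-cell replicate 1 and MII replicate 2. The liver-type subunit *PFKL* was listed at 0 in the 4 injected libraries and was not analysed in the untreated ones. At these levels a difference of *PFKP* between stages or after knockdown was not tested, and a ratio of *PFKP* to the other subunits was not computed.

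*ALDOA*, the general aldolase, had the largest log2 fold change in 8-cell embryos of the 7 enzymes tested before the lactate step. It was at 6.42, 10.5 and 16.2 FPKM in MII, at 22.0, 36.6 and 23.4 FPKM in 4-cell and at 153, 41.5 and 39.97 FPKM in 8-cell libraries. The 3 groups did not overlap. Wholly above MII lay 37.8% of all tested genes in 4-cell and 36.4% in 8-cell embryos. *ALDOA* was increased in 8-cell embryos against MII (log2 fold change 2.51, SE 0.51, adjusted p = 0.00437). Without 8-cell replicate 1, which was far above the other libraries, it was 1.88 (adjusted p = 0.00263). In 4-cell embryos the change was 1.28 (adjusted p = 0.0848), and it was 1.28 with an adjusted p of 0.0102 in the fit without 8-cell replicate 1. The brain form *ALDOC* was at 0.474 to 2.93 FPKM in untreated libraries.

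*GAPDH* makes the NADH of the pathway. It was at 17.1, 36.7 and 40.4 FPKM in MII, at 59.9, 113 and 93.4 FPKM in 4-cell and at 211, 84.5 and 85.4 FPKM in 8-cell libraries. All 6 untreated embryo libraries lay above all MII libraries. Of all tested genes, 37.8% lay wholly above MII in 4-cell and 36.4% in 8-cell embryos. *GAPDH* was increased in 4-cell embryos (log2 fold change 1.51, SE 0.43, adjusted p = 0.0261) and in 8-cell embryos (1.93, SE 0.43, adjusted p = 0.00714). The 4-cell call was lost without MII replicate 1 (1.14, adjusted p = 0.0972), without 4-cell replicate 2 or 3 (0.0871 and 0.0784), with the low genes kept in (0.0636) and after rescaling to equal sums (1.0005, adjusted p = 0.137). Its sperm-specific relative *GAPDHS* was at most 0.47 FPKM in any library.

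*PGK1*, which makes the first ATP, was at 17.0, 19.6 and 32.3 FPKM in MII, at 13.9, 25.4 and 23.7 FPKM in 4-cell and at 23.7, 22.3 and 18.8 FPKM in 8-cell libraries. All 3 groups overlapped. Its log2 fold changes were -0.12 in 4-cell (95% interval -0.77 to 0.54) and -0.04 in 8-cell embryos (-0.69 to 0.61), with adjusted p of 0.800 and 0.921. With FPKM rescaled to equal sums they were -0.65 and -0.46, and with median-ratio rescaling -0.41 and -0.41, so the intervals hold for FPKM as deposited. The testis isoform *PGK2* was at most 0.18 FPKM in the embryo libraries without injection.

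*ENO1*, the general enolase, was at 2.61, 5.55 and 12.8 FPKM in MII, at 2.44, 7.50 and 4.00 FPKM in 4-cell and at 16.2, 5.92 and 4.45 FPKM in 8-cell libraries. *PKM*, pyruvate kinase, whose splice forms are not told apart by gene-level values, was at 10.3, 17.0 and 12.1 FPKM in MII, at 5.20, 14.2 and 10.6 FPKM in 4-cell and at 45.2, 8.19 and 6.01 FPKM in 8-cell libraries. For both genes the stages overlapped, and 8-cell replicate 1 was far above the other libraries of its stage. The 8-cell against MII log2 fold change of *ENO1* was 0.33 (adjusted p = 0.687) and -0.17 without that library. That of *PKM* was 0.05 (adjusted p = 0.956) and -0.79 without it (adjusted p = 0.121). Other isoforms, *ENO3* and *PKLR*, were at most 0.279 and 0.125 FPKM in untreated libraries.

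MII replicate 3 was the highest MII library for *HK2*, *ALDOA*, *GAPDH*, *PGK1* and *ENO1*, against 25.5% of all genes tested. It was also the MII library with the most mRNA of some cumulus cell markers, *TNFAIP6* at 19.3 FPKM against 1.25 and 0.782 and *PTX3* at 2.35 FPKM against 0 and 0.0615, while *AMH* was at 0 in all 3. Over the whole list of 13 cumulus and granulosa markers listed for MII the sum was 51.5, 63.5 and 75.3 FPKM in MII, and ran from 71.3 to 81.5 FPKM in 4-cell and from 107 to 171 FPKM in 8-cell libraries, with 4, 3 and 7 markers at 1 FPKM or more in the MII replicates and 5 in each of these embryo libraries. Replicate 3 was thus the highest MII library by the sum and by the count. *STAR*, *HAS2* and *SERPINE2* made up most of it, and of these *STAR* and *HAS2* were lowest in MII replicate 3 (29.1 and 8.15 FPKM) and *SERPINE2* was highest in MII replicate 2 (17.1 FPKM). The part of these cells in the levels of the glycolytic genes was not tested. In such bulk libraries fewer cells of a type and less RNA per cell cannot be told apart. The 8-cell replicate 1 was the highest 8-cell library for 7 of 9 tested enzymes, against 44.9% of all genes. It also had the highest cumulus and granulosa sum of its stage (171 FPKM against 109.5 and 107), the highest oocyte marker sum (3045 against 2500 and 2756) and the lowest sum of genome activation markers (352 against 1422 and 555), and the part of these in its enzyme values was not tested. Other libraries stood to one side in the same way. MII replicate 1 was the lowest of its group for 9 of 9 enzymes (30.0% of all genes), 4-cell replicate 1 the lowest for 8 (40.4%) and 4-cell replicate 2 the highest for 7 (53.0%). Among the injected libraries NC replicate 1 was the higher for 8 of 9 (62.9%) and YTHDF2-KD replicate 1 for 7 (58.8%).

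Both lactate dehydrogenase genes were higher in the untreated embryo libraries than in the MII libraries. *LDHA* was at 154, 421 and 185 FPKM in MII, at 967, 855 and 1248 FPKM in 4-cell and at 785, 865 and 967 FPKM in 8-cell libraries, resting on 11037 to 74870 fragments per library. Each of these 6 embryo libraries was above every MII library, beside 37.8% of all tested genes wholly above MII in 4-cell and 36.4% in 8-cell embryos. *LDHA* was increased by 2.14 in 4-cell (SE 0.33, adjusted p = 0.00162) and by 1.92 in 8-cell embryos (SE 0.33, adjusted p = 0.00201) on the log2 scale. It passed under each alternative, with log2 fold changes of 1.60 to 2.57 in 4-cell and 1.5 to 2.43 in 8-cell embryos. *LDHA* took 0.0557 to 0.146% of all FPKM in MII and 0.204 to 0.289% in the untreated embryos.

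*LDHB* was at 18.4, 62.5 and 20.1 FPKM in MII, at 92.0, 102 and 124 FPKM in 4-cell and at 131, 251 and 193 FPKM in 8-cell libraries. Its 3 groups did not overlap (37.8% of all tested genes lay wholly above MII in 4-cell and 36.4% in 8-cell embryos). It was increased by 1.84 in 4-cell (SE 0.43, adjusted p = 0.0103) and by 2.65 in 8-cell embryos (SE 0.43, adjusted p = 0.00136), and both calls held under each alternative, with adjusted p up to 0.0464. MII replicate 2 was again the highest MII library for both genes. From the 4-cell to the 8-cell stage *LDHB* differed by 0.81 (SE 0.43, 95% interval -0.15 to 1.77, adjusted p = 0.281), and with MII replicate 2 and 8-cell replicate 1 both left out, an alternative chosen after seeing the data, by 1.05 (adjusted p = 0.0179). *LDHA* differed by -0.22 (95% interval -0.97 to 0.53, adjusted p = 0.715). The gene for the testis subunit, *LDHC*, was not analysed here.

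*LDHA* made up most lactate dehydrogenase mRNA at each untreated stage, with 87.1 to 90.2% in MII, 89.3 to 91.3% in 4-cell and 77.5 to 85.7% in 8-cell libraries. The log2 ratio of *LDHA* to *LDHB* was 3.06, 2.75 and 3.19 in MII, 3.39, 3.06 and 3.33 in 4-cell and 2.59, 1.78 and 2.33 in 8-cell libraries. It was lower in 8-cell than in 4-cell libraries by 1.03 and lower than in MII by 0.77, with no overlap in either comparison (exact permutation p = 0.1 each, the smallest possible, adjusted p = 0.2). Between the 4-cell stage and MII it differed by 0.26 and the groups overlapped (exact permutation p = 0.2).

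**Figure D3:**
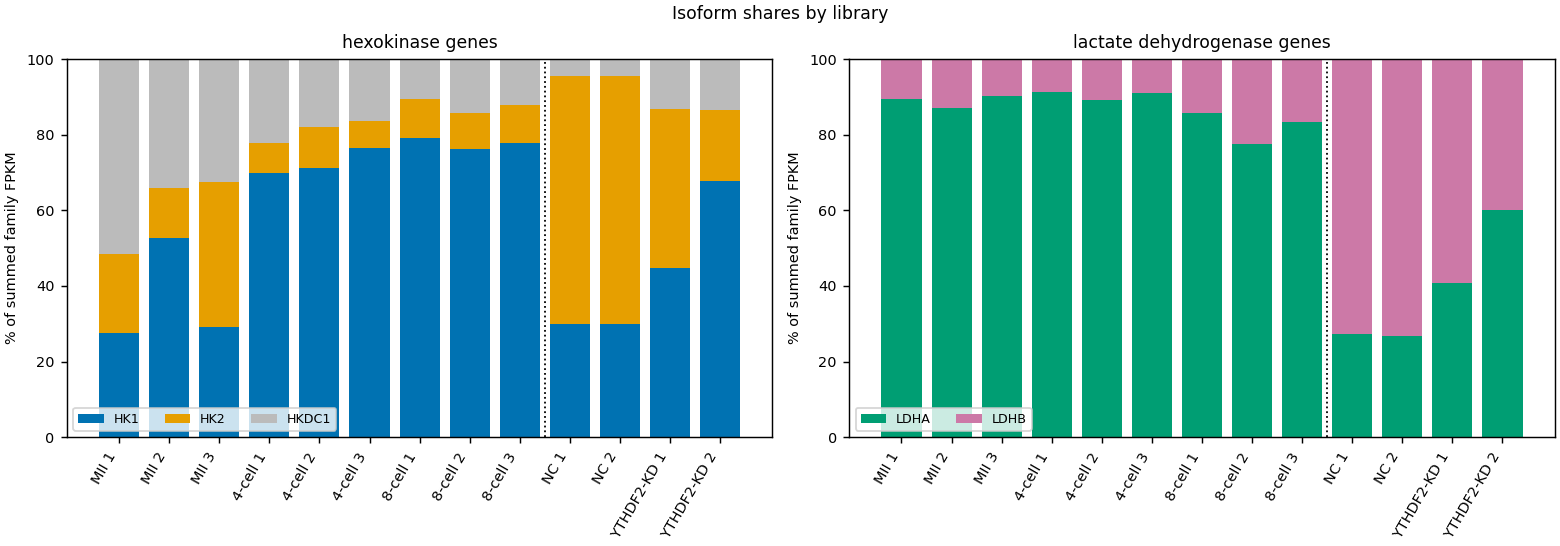
Share in percent of the summed FPKM of the hexokinase genes *HK1*, *HK2* and *HKDC1* (left) and of *LDHA* and *LDHB* (right), a bar for each library, with a dotted line between untreated and injected libraries. *LDHA* fills 77.5 to 91.3% of the bar in untreated libraries and 26.6 and 27.4% in NC, and *HK1* fills 29.9% in both NC libraries and 44.6 and 67.8% in YTHDF2-KD.

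Counted together, 3 of the 9 tested enzymes were increased (*GAPDH*, *LDHA*, *LDHB*) and 1 was decreased (*HK2*) in 4-cell embryos, where 24.7% of all tested genes were increased and 6.42% decreased. In 8-cell embryos 5 of 9 were increased (*HK1*, *ALDOA*, *GAPDH*, *LDHA*, *LDHB*) and none was decreased, also by an unadjusted p under 0.05, against 27.3% and 10.0% of all genes. After median-ratio rescaling of the libraries, which brought the median of all genes to 0.06, the same 4 and 5 enzymes passed, while the split of all calls went from 2249 increased and 584 decreased to 1083 and 922 in 4-cell and from 2486 and 912 to 1370 and 1336 in 8-cell embryos. With FPKM rescaled to equal sums, where the medians of all genes were -0.15 and 0.020 and the splits 897 against 1192 and 1366 against 1458, 3 enzymes passed in 4-cell (*GAPDH* was lost) and 4 in 8-cell embryos (*HK1* was lost). The median log2 fold change of the 9 enzymes was 0.94 in 4-cell and 1.59 in 8-cell embryos, beside 0.29 and 0.37 over all tested genes. Relative to those medians *LDHA* was higher by 1.85 and 1.55, *LDHB* by 1.56 and 2.28, and *ALDOA* in 8-cell embryos by 2.14. By range, 4 of 9 enzymes lay wholly above and 1 wholly below MII in 4-cell embryos, beside 37.8% and 14.1% of all tested genes. In 8-cell embryos 5 of 9 lay above and none below, beside 36.4% and 13.7%.

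Between the 8-cell and 4-cell stages none of the 9 enzymes passed in limma on log2 FPKM, and none with limma voom on the fragments, where 8.29% of all genes passed in either direction. With an unadjusted p under 0.05 there was 1, *ALDOA* (log2 fold change 1.22, SE 0.51, adjusted p = 0.181), which was 0.60 without 8-cell replicate 1. *HK1*, *ALDOA* and *LDHB* lay higher in all 8-cell than in all 4-cell libraries, as did 11.6% of all tested genes.

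**Figure D4:**
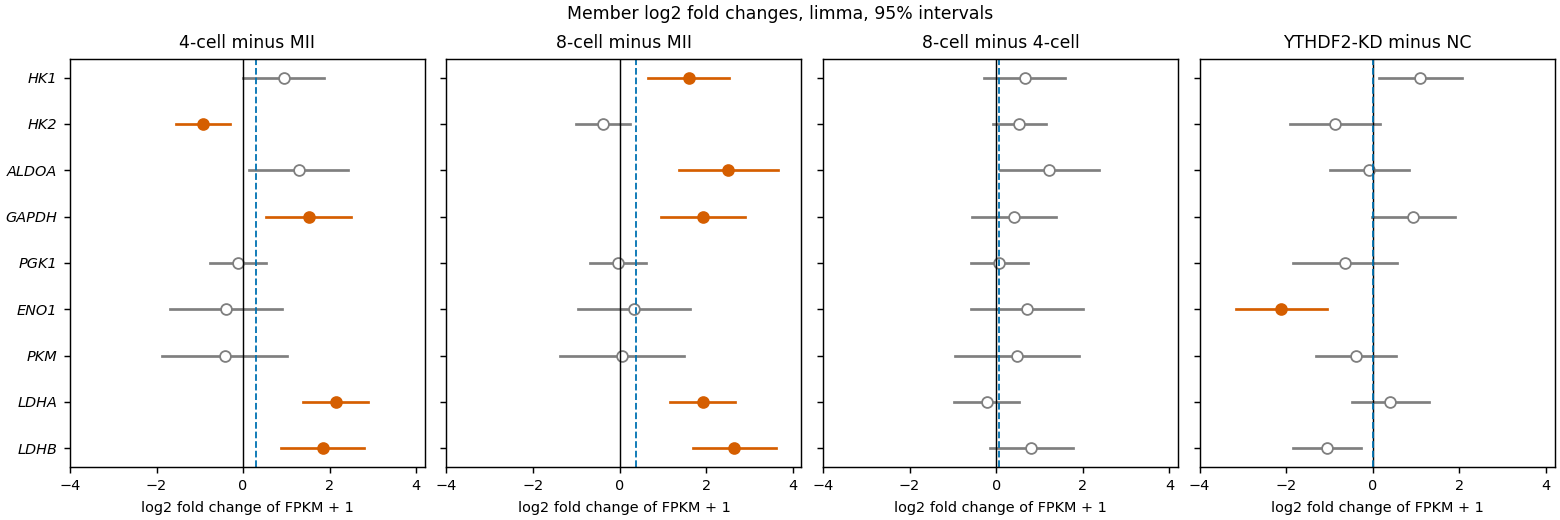
Log2 fold changes of FPKM + 1 (points) with 95% intervals (lines) from limma for the 9 enzymes tested in 4 comparisons, filled orange where the adjusted p is under 0.05, with the median of all tested genes as a dashed line. *LDHA* and *LDHB* lie at 1.84 to 2.65 against MII, and *ENO1* at -2.11 is the 1 filled point of the knockdown.

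In YTHDF2-KD embryos *ENO1* was the 1 enzyme that passed the test. It was at 72.9 and 40.9 FPKM in NC and at 19.3 and 7.21 FPKM in YTHDF2-KD, with no overlap, a log2 fold change of -2.11 (SE 0.49, adjusted p = 0.0219). This 1 of 9 enzymes stands beside 5.92% of 11004 tested genes that were decreased and 2.06% that were increased. The call was lost without NC replicate 1 (-1.70, adjusted p = 0.111), without YTHDF2-KD replicate 2 (-1.46, 0.108) and with the low genes kept in (0.178), a setting in which limma called 0 of 20357 genes while 3731 had an unadjusted p under 0.05.

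*LDHB* was at 402 and 378 FPKM in NC and at 198 and 178 FPKM in YTHDF2-KD. The replicates lay close together and the groups apart, but the log2 fold change of -1.05 (SE 0.37, 95% interval -1.84 to -0.27) did not pass (limma adjusted p = 0.0839). *LDHA* was at 152 and 137 FPKM in NC and at 136 and 269 FPKM in YTHDF2-KD, with overlap (0.41, adjusted p = 0.530). *LDHA* was thus 27.4 and 26.6% of lactate dehydrogenase FPKM in NC and 40.8 and 60.2% in YTHDF2-KD. The log2 ratio of *LDHA* to *LDHB* was -1.41 and -1.46 in NC and -0.54 and 0.60 in YTHDF2-KD, higher by 1.46. With 2 libraries against 2 the exact two-sided permutation test cannot go below p = 0.333, which it reached (adjusted p = 0.381). The difference was 2.03 without YTHDF2-KD replicate 1 and 0.90 without YTHDF2-KD replicate 2.

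*HK2* was above *HK1* in both NC libraries and below it in both YTHDF2-KD libraries, only narrowly in YTHDF2-KD replicate 1. *HK1* was at 13.6 and 7.16 FPKM in NC and at 18.3 and 27.4 FPKM in YTHDF2-KD (log2 fold change 1.1, SE 0.45, adjusted p = 0.126), and *HK2* was at 29.9 and 15.7 FPKM in NC and at 17.3 and 7.53 FPKM in YTHDF2-KD (-0.87, SE 0.48, adjusted p = 0.244). Neither passed. The log2 ratio of *HK2* to *HK1* was 1.13 and 1.13 in NC and -0.09 and -1.85 in YTHDF2-KD, lower by 2.1 (exact permutation p = 0.333, adjusted p = 0.381). The difference was -2.98 without YTHDF2-KD replicate 1 and -1.21 without YTHDF2-KD replicate 2. *HKDC1* was at 2.04 and 1.07 FPKM in NC and at 5.46 and 5.49 FPKM in YTHDF2-KD (1.37, adjusted p = 0.0609).

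Of the other enzymes, *GAPDH* was at 48.1 and 21.7 FPKM in NC and at 69.4 and 57.3 FPKM in YTHDF2-KD, higher in both knockdown libraries without passing (0.94, 95% interval -0.01 to 1.90, adjusted p = 0.175). *ALDOA* was at 107 and 74.5 FPKM in NC and at 115 and 61.3 FPKM in YTHDF2-KD (-0.08, 95% interval -1.0 to 0.83). *PKM* was at 54.9 and 28.4 FPKM in NC and at 30.4 and 30.1 FPKM in YTHDF2-KD (-0.38, adjusted p = 0.579). *PGK1* was at 25.2 and 49.9 FPKM in NC and at 44.9 and 10.9 FPKM in YTHDF2-KD, so that its replicates differed more than its groups. Its log2 fold change was -0.64 (adjusted p = 0.461), and -1.61 without YTHDF2-KD replicate 1 (adjusted p = 0.0224). In all, 2 of 9 enzymes lay apart and higher (*HK1*, *GAPDH*) and 2 apart and lower (*ENO1*, *LDHB*), beside 30.3% and 30.7% of all tested genes. Beside these values, the oocyte markers summed to more in both YTHDF2-KD libraries than in both NC libraries, with 8 of 9 markers listed, and the markers of embryonic genome activation (5 of 7 listed) summed to 3406 and 4199 FPKM in NC and to 4021 and 3306 FPKM in YTHDF2-KD. Their part in the values of the enzymes was not tested.

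Untreated 8-cell and NC 8-cell embryos are given side by side only, since their values were normalized apart and the experiment and the injection cannot be told apart. *LDHA* was at 785 to 967 FPKM in untreated and at 137 and 152 FPKM in NC libraries, and *LDHB* at 131 to 251 and at 378 and 402 FPKM. *HK2* was at 2.16 to 3.37 FPKM in untreated and at 15.7 and 29.9 FPKM in NC libraries, and *ENO1* at 4.45 to 16.2 and at 40.9 and 72.9 FPKM. Genome activation markers summed to 352 to 1422 FPKM in the untreated 8-cell libraries and oocyte markers to 2500 to 3045 FPKM, against 3406 and 4199 FPKM and 752 and 479 FPKM in NC.

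Genes around the pathway were taken from lists by function. Their counts stand beside 24.7% of all tested genes increased and 6.42% decreased in 4-cell embryos, 27.3% and 10.0% in 8-cell embryos, and 2.06% and 5.92% after knockdown, and nothing particular to a list is read from them. Of 17 other glycolytic enzymes and isoforms 6 could be tested at the stages, and 1 was increased, *BPGM* (bisphosphoglycerate mutase, 0.999, adjusted p = 0.0189), and 1 decreased, *HKDC1*, in 4-cell embryos. *BPGM* was at 42.9, 87.1 and 44.9 FPKM in MII and at 94.0, 115 and 127 FPKM in 4-cell libraries. In 8-cell embryos only *HKDC1* of these passed. *PGAM1* in 8-cell embryos stood at 1.22 (adjusted p = 0.0503). After knockdown none of the 6 tested passed in limma, and 1 had an unadjusted p under 0.05.

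Of 7 regulators of the phosphofructokinase step only *TIGAR*, which lowers fructose 2,6-bisphosphate, had enough mRNA to be tested at the stages. It was at 19.0, 29.3 and 21.7 FPKM in MII, at 69.5, 92.5 and 79.45 FPKM in 4-cell and at 58.2, 36.2 and 59.4 FPKM in 8-cell libraries, and was increased by 1.76 and 1.09 (adjusted p of 0.000925 and 0.00698). Among 9 sugar and monocarboxylate carriers 3 were tested and *SLC2A3*, the high-affinity glucose carrier GLUT3, was increased in 8-cell embryos (3.35, SE 0.59, adjusted p = 0.00205), 1 of 3 beside 27.3% of all genes. *SLC2A3* was at 1.34, 2.02 and 2.16 FPKM in MII and at 51.3, 28.3 and 14.3 FPKM in 8-cell libraries. It was at 170 and 182 FPKM in NC and at 132 and 115 FPKM in YTHDF2-KD, where none of the 3 tested carriers passed in limma, nor did any have an unadjusted p under 0.05.

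Genes for pyruvate entry into mitochondria and its oxidation were tested for 12 of 14. In 4-cell embryos 7 were increased and 1 decreased, and in 8-cell embryos 6 were increased and 2 decreased, with medians of 0.84 and 0.68. The medians over all tested genes were 0.29 and 0.37. *PDK1*, a kinase that switches pyruvate dehydrogenase off, was increased by 1.68 and 1.33 (adjusted p of 0.000244 and 0.00049). *MPC1* and *MPC2*, the subunits of the mitochondrial pyruvate carrier, went opposite ways in 4-cell embryos (1.15 and -1.19, adjusted p of 0.011 and 0.00726). *PDP2*, a phosphatase that switches the enzyme on, was higher in 8-cell embryos than in MII (1.74, adjusted p = 0.00408) and than in 4-cell embryos (1.37, adjusted p = 0.0427). After knockdown 1 of 13 tested was increased, beside 2.06% of all genes, *MPC1* (18.6 and 9.56 FPKM in NC, 36.7 and 51.6 FPKM in YTHDF2-KD, 1.63, adjusted p = 0.0394).

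In the pentose phosphate branch 5 of 7 genes were tested, beside the shares of all genes given above (24.7% increased in 4-cell and 27.3% in 8-cell embryos, 5.92% decreased after knockdown). *RPE* was increased in 4-cell embryos (1.08, adjusted p = 0.029) and no gene of the branch passed in 8-cell embryos in limma, where 2 had an unadjusted p under 0.05. *TKT*, transketolase, was decreased after knockdown, from 225 and 231 FPKM in NC to 100 and 41.5 FPKM (-1.80, adjusted p = 0.0273), while it was at most 2.77 FPKM in any untreated library. Of 9 genes of the malate-aspartate and glycerol phosphate shuttles, which carry NADH electrons into mitochondria, 8 were tested. None passed in 4-cell embryos in limma, where 2 had an unadjusted p under 0.05. *GPD2* was the 1 gene of the list decreased in 8-cell embryos (-1.21 against MII, adjusted p = 0.000827), with none increased, and *MDH1* was decreased after knockdown, from 44.7 and 26.6 FPKM in NC to 8.5 and 4.6 FPKM (-2.29, adjusted p = 0.0115).

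Over the 9 untreated libraries the genes with the pattern most like each enzyme were sought among 3654 named genes averaging 10 FPKM or more, by Pearson's r of log2(FPKM + 1) as a description. For *LDHA* this was *TMEM178A* (r = 0.996), for *LDHB* *C19H17orf58* (0.976), for *HK1* *UBL4A* (0.979), for *HK2* *SUSD3* (0.972), for *ALDOA* *NUP50* (0.973) and for *GAPDH* *UNC119* (0.973). For *PKM* it was *C1H21orf59* (0.954), for *ENO1* *ZAR1L* (0.928) and for *PGK1* *KIF4A*, with the lowest value of 0.792. Among the enzymes themselves *ALDOA* and *GAPDH* (0.946) and *LDHA* and *LDHB* (0.919) varied most alike, and *HK2* and *LDHA* least (-0.72). These points share their libraries, 3 stages and the libraries that stand apart.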

How the data were processed

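Per the labels and the methods of the study, Smart-seq2 libraries were aligned by the authors to goat genome ARS1 with HISAT2, uniquely aligned reads were counted with HTSeq, and each library was normalized on its own. The deposited values are FPKM, not rounded for untreated and rounded to 2 decimals for injected libraries. No per-sample column was left unused (0). Symbols were matched through RefSeq synonyms. Genes averaging 1 FPKM or more (9090 over the 9 untreated libraries, 11004 over the 4 injected ones, fitted separately) were taken to log2(FPKM + 1) and tested by limma 3.58.1 under R 4.3.3 (lmFit, eBayes with trend), and called at a Benjamini-Hochberg adjusted p under 0.05 over all genes of the fit. A fold change on this scale understates the change of low genes. Isoform ratios used a pseudocount of 0.1 and exact permutation. Fragments were recovered from FPKM steps for 17918 of 17918 genes above 0 in the untreated libraries (tolerance 0.02 of a fragment). On simulated data in which only a small part of the genes was moved, 22% of 2-fold and 85% of 4-fold changes were recovered for 8-cell against MII. For the knockdown it was 14% and 87%. In the data more genes differed (3398 of 9090 called for 8-cell against MII), which changes the cutoff, so these rates do not give the power here. Nothing in the labels says whether replicates came from separate collections, so p-values measure the spread between these libraries, which may be technical. The enzymes, lists, tests and alternatives were chosen with earlier results of these data known. Named are the 10 enzymes, their partner isoforms, the gene of most similar pattern to each enzyme, and *YTHDF2*. From each list and comparison they are taken from up to 4 genes with a limma adjusted p under 0.05, ranked by size of change. Not described above, though within that rule, are *DLD* in 4-cell (1.14) and *PDK3* (1.28) and *PDP1* (1.09) in 8-cell embryos against MII. The same holds for *GPD2* between 8-cell and 4-cell embryos (-1.22). *PGAM1* and the isoforms at low level were named after their values were seen. Some isoforms of these steps are not reported here and enter no sum or list count. Alternatives were other pseudocounts, no filter, 2 rescalings, a replicate block, leaving out libraries, no trend, voom and the call rule of the study. Python 3.11.15 with numpy, pandas, scipy and matplotlib did the rest.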

Additional observations from a re-analysis of the deposited data

How the results depend on the processing

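*LDHA* and *LDHB* against MII kept direction and call under each alternative, while of 549 log2 fold changes under an alternative, all enzymes and comparisons together, 19 lost a call, 6 gained one and 26 changed sign. The number of enzymes called in 4-cell embryos went from 4 to 2 with no filter on low values (2502 of 17918 genes called). It was 2 with a replicate block (2337 of 9090 genes). It ran from 2 to 5 with single libraries left out (2 without 4-cell replicate 3 or MII replicate 1), where 1820 to 3564 genes were called. It was 6, with *ALDOA* and *HK1* added, without both MII replicate 2 and 8-cell replicate 1 (3377 of 8685 genes). In 8-cell embryos against MII the number was 4 to 5, while 2400 to 3710 of all tested genes were called. Between the 8-cell and 4-cell stages it rose from 0 to 1 (*LDHB*) with MII replicate 2 and 8-cell replicate 1 both left out (650 of 8685 genes called). That alternative was chosen after seeing the data. It was 1 (*ALDOA*) by the call rule of the study, which 803 of 9090 genes passed, and 0 without any single library. In the knockdown it went from 1 to 0 with no filter, where 0 of 20357 genes were called. It was 3 (*ENO1*, *HK1*, *LDHB*) by the call rule of the study, which 2728 of 11004 genes passed. With single libraries left out of the knockdown, a lone library was assumed to vary like the others.

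Sign changes concerned uncalled values. Against MII in 8-cell embryos, *ENO1* was -0.030 with FPKM rescaled to equal sums, -0.0066 with median-ratio rescaling and -0.20 without both named libraries, and *PKM* was -0.38, -0.31 and -0.60. Between 8-cell and 4-cell embryos, *GAPDH* was -0.017 and *PKM* -0.36 without both libraries, and *PGK1* was -0.0021 with median-ratio rescaling. With single libraries left out, *PGK1* ran from -0.30 to 0.15 in 4-cell and from -0.22 to 0.22 in 8-cell embryos against MII, and from -0.18 to 0.23 between the embryo stages. *ENO1* ran from -0.85 to 0.12 in 4-cell and from -0.17 to 0.83 in 8-cell embryos against MII, *PKM* from -0.79 to 0.57 in 8-cell embryos against MII and from -0.36 to 1.001 between the embryo stages, and *GAPDH* from -0.017 to 0.64 there. In the knockdown the ranges were -0.53 to 0.37 for *ALDOA*, -1.61 to 0.33 for *PGK1*, -0.84 to 0.087 for *PKM* and -0.080 to 0.89 for *LDHA*. The log2 ratio of *HK2* to *HK1* between the embryo stages was -0.12 with a pseudocount of 1 and ran from -0.081 to 0.27 with single libraries left out, and the other ratio differences kept their sign. The causes were not tested beyond what leaving out libraries and genes changes.

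Replicate numbers are shared between groups only as numbers. Deviations of same-numbered libraries from their group means correlated by -0.51 to 0.20 over 9 untreated pairs and by -0.15 in the injected pairs, and not every library correlated best with its own number. With a replicate block the calls of *HK2* (adjusted p = 0.0686) and *GAPDH* (0.0559) in 4-cell embryos were lost, and no other call on an enzyme changed. The ratio of *PFKP* to *PFKL* plus *PFKM* was not run. The unknown depth of the injected libraries and 2 libraries per group limit the knockdown.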
